A study of Mus musculus with 10 samples.

Results

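Levels were followed for 10 genes at the core of TGFbeta signalling: the receptor genes Tgfbr1, Tgfbr2 and Tgfbr3, the signal-carrying Smad genes Smad2, Smad3 and Smad4, the inhibitory Smad genes Smad6 and Smad7, and the repressor genes Ski and Skil. They were taken by gene symbol from a table of read counts for 24454 genes. All 10 were among the 13135 genes that passed a filter on low counts and were tested. Measured values did not enter the rule that lists them, but the genes were chosen with earlier results of these data known. The cells were NMuMG/E9, a subclone of NMuMG, a line of normal mouse mammary gland cells, so that 1 clone stands for the line. Every culture received siRNA at 20 nM, either against Irf1, the mRNA of interferon regulatory factor 1 (siIrf1), or a control siRNA (siCtr), and was harvested 3 d after transfection. Recombinant human TGFbeta1 at 2 ng/ml was present for the last 2 d, or was absent throughout (0 d). The siIrf1 TGFbeta group held 3 libraries and the siIrf1 0 d group 3 (replicates 1, 2 and 3 of each), the siCtr TGFbeta group 2 (replicates 2 and 3) and the siCtr 0 d group 2 (replicates 1 and 3). Whether cells with less Irf1 held other amounts of receptor, Smad or Ski mRNA, before or after TGFbeta, was the question asked of these genes.

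TGFbeta binds the receptor Tgfbr2, which recruits and phosphorylates Tgfbr1, while Tgfbr3 (betaglycan) is a co-receptor that presents the ligand. Tgfbr1 phosphorylates Smad2 and Smad3, which join Smad4 and act on genes in the nucleus. Smad7 and Smad6 hold the receptors and Smads back, Ski and Skil (SnoN) repress Smad target genes, and Smad7 and Skil are known target genes of the pathway, so that it feeds back on itself. In mammary epithelial cells the pathway drives epithelial-mesenchymal transition.

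Libraries held 27547649 to 67301646 counts. Irf1 averaged 41.2 ± 4.9 CPM in siIrf1 TGFbeta libraries and 109 ± 3.6 CPM in siCtr TGFbeta libraries, and 59.4 ± 4.2 CPM in siIrf1 0 d libraries and 138 ± 13 CPM in siCtr 0 d libraries (SD, n = 3 and 2 libraries), so that the knockdown left part of the mRNA in place. CPM are counts scaled to a library's effective size and serve to compare libraries within a gene. Of the epithelial markers, Krt8, Krt18, Krt19 and Cdh1 were present (summed level 6620 to 13600 CPM over the 10 libraries), whereas Cldn7 was at 0 in every group and Epcam at 0 in all groups except siIrf1 TGFbeta, where it averaged 0.00984 CPM. Summed fibroblast markers stood at 27.1 to 31.4 CPM in siIrf1 TGFbeta and 0.837 to 0.95 CPM in siIrf1 0 d libraries, and at 34.4 to 38.9 CPM in siCtr TGFbeta and 0.424 to 0.589 CPM in siCtr 0 d libraries, with Lum at 0 in every group and Dcn at 0 in both siCtr groups; their part in the results was not tested. Summed immune markers stood at 27.7 to 58 CPM with Cd3e at 0 in every group, and adipocyte markers at 0.167 CPM or less. Most of the immune sum was Csf1r, which averaged 46.8 CPM in siIrf1 TGFbeta, 39.9 CPM in siIrf1 0 d, 33.15 CPM in siCtr TGFbeta and 29.7 CPM in siCtr 0 d libraries. The general immune marker Ptprc averaged 0.779 CPM or less in each group. Summed endothelial markers stood at 1.52 to 1.86 CPM in siIrf1 TGFbeta and 0 to 0.158 CPM in siIrf1 0 d libraries, and at 5.16 to 5.92 CPM in siCtr TGFbeta and 0.152 to 0.157 CPM in siCtr 0 d libraries, nearly all of it Cdh5 in the TGFbeta groups, with Kdr and Tek at 0 in both siCtr groups. Libraries also differed in how AT-rich and GC-rich transcripts were represented. With genes in 4 equal classes by GC content, the median deviation (log2) of the lowest class minus that of the highest was 0.63, -0.36 and 0.79 in the siIrf1 TGFbeta libraries and 0.55, 0.05 and 0.72 in the siIrf1 0 d libraries, against -0.26 and -0.26 in siCtr TGFbeta and -1.29 and -0.52 in siCtr 0 d libraries. On this scale siIrf1 TGFbeta replicate 2 stood apart from the rest of its group, and siCtr 0 d replicate 1 had the lowest value of all 10 libraries. With 2 libraries in the siCtr 0 d group, which of them departs cannot be told. The siIrf1 0 d replicate 2 library also lay below the rest of its group. Below, siIrf1 TGFbeta replicate 2 and siCtr 0 d replicate 1 are named the libraries that stood apart. Because libraries differed in this way, the siRNA comparisons are given both on the counts as deposited and with the trend on transcript length and GC content removed.

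After 2 d of TGFbeta the 10 genes split in 3 ways in both siRNA backgrounds. Tgfbr1, Smad7, Ski and Skil rose, Tgfbr2 and Tgfbr3 fell, and no change of Smad2, Smad3 or Smad4 passed the test (adjusted p under 0.05). In siIrf1 cells 7 of the 10 genes changed, 5 up and 2 down, where 21.3% of all genes tested changed (11.6% up and 9.71% down). In siCtr cells 6 of the 10 changed, 4 up and 2 down, where 32.5% of all genes did (16.1% up and 16.3% down). Libraries with and without TGFbeta did not overlap for 35.8% of all genes in siIrf1 cells and for 71.9% in siCtr cells, where the groups are smaller. The seventh gene in siIrf1 cells was Smad6, at an adjusted p of 0.0491. The difference between the TGFbeta effects in siIrf1 and siCtr cells (interaction) was called for none of the 10 genes by edgeR or DESeq2. On the deposited counts none had an unadjusted p under 0.05 in edgeR either (smallest 0.143). Of all genes, 4.12% were called by edgeR and 8.87% by DESeq2. With the length and GC trend removed, the Smad7 interaction in edgeR was -0.46 ± 0.18 (unadjusted p = 0.0273, adjusted p = 0.143). None of the 10 was called there, where 9.53% of all genes were.

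**Figure D1:**
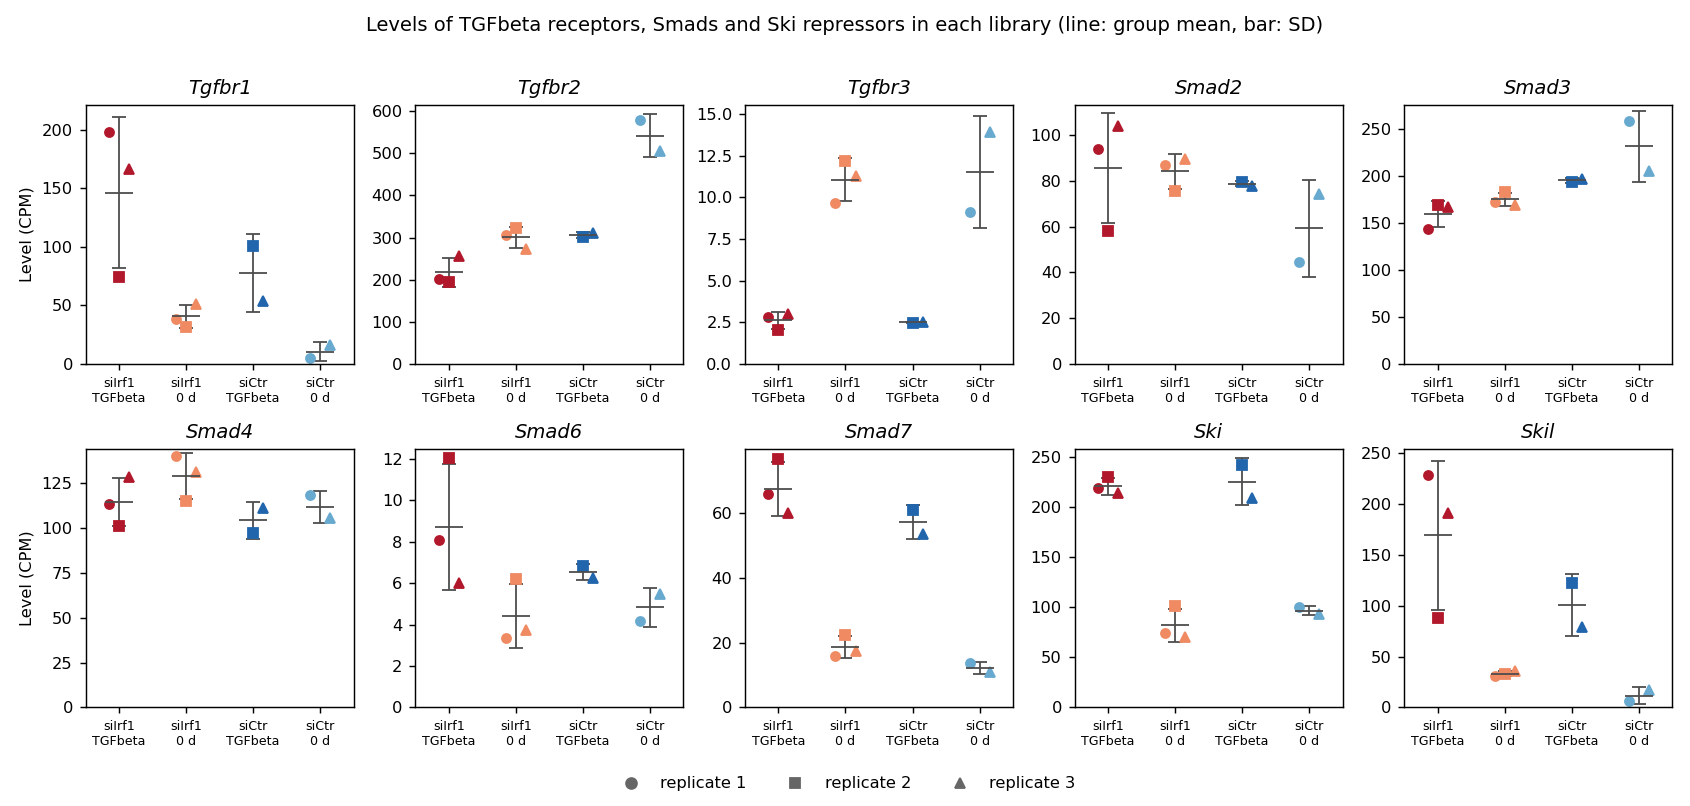
Level (CPM, linear axis from 0) of each of the 10 genes in all 10 libraries, by group, with the group mean (line) and SD (bar) and a marker shape per replicate number. Tgfbr2 is lowest in siIrf1 TGFbeta and highest in siCtr 0 d libraries, Tgfbr1 and Skil are lowest in siCtr 0 d libraries, and Smad7 and Ski separate by TGFbeta in both siRNA groups.

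Tgfbr2 (Entrez gene 21813, chromosome 9, 116087695 to 116175363 in GRCm38.p6), the receptor that binds the ligand first, was the member with the clearest difference by siRNA. It stood at 200.9, 194 and 257 CPM in the siIrf1 TGFbeta libraries and at 306, 323 and 273 CPM in the siIrf1 0 d libraries (replicates 1, 2 and 3). In siCtr cells it stood at 300.4 and 310.4 CPM with TGFbeta (replicates 2 and 3) and at 578 and 506 CPM at 0 d (replicates 1 and 3). Both siCtr 0 d libraries lay above all 8 others, and the 3 siIrf1 TGFbeta libraries lay below all 7 others. Levels of the siIrf1 0 d and siCtr TGFbeta libraries overlapped. In bulk RNA, fewer cells with a transcript and less of it per cell cannot be told apart. Without TGFbeta, Tgfbr2 fell with siIrf1 (log2 change -0.85 ± 0.16 (SE), 0.554 of the siCtr level, adjusted p = 0.00409). This call was kept without any 1 library (log2 change -0.91 to -0.76) and once the trend on length and GC was removed (-0.81 ± 0.12, adjusted p = 0.00122). With TGFbeta the difference was -0.49 ± 0.16, 0.712 of the siCtr level, with all siIrf1 libraries below both siCtr libraries and an adjusted p of 0.0598. With the trend removed it was -0.44 ± 0.12 (adjusted p = 0.0239), and DESeq2 gave -0.50 (adjusted p = 0.0238). Of 19 alternatives, 8 called this difference and 11 did not. TGFbeta lowered Tgfbr2 in siCtr cells (-0.83 ± 0.18, adjusted p = 0.00545) and in siIrf1 cells (-0.47 ± 0.14, adjusted p = 0.0433). The call in siIrf1 cells stood close to the threshold: with the replicate number as a block it had an adjusted p of 0.0621, and without any 1 library other than siIrf1 TGFbeta replicate 3 it had an adjusted p of 0.0503 to 0.166. In siCtr cells the call was lost without siCtr 0 d replicate 1 (-0.69, adjusted p = 0.0514), siCtr TGFbeta replicate 2 (-0.71, 0.0805) or siCtr TGFbeta replicate 3 (-0.77, 0.0529). Its interaction was 0.36 ± 0.23 (95% interval -0.15 to 0.87, adjusted p = 0.438).

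Tgfbr1 (Entrez gene 21812, chromosome 4, 47353222 to 47414926 in GRCm38.p6), the kinase that Tgfbr2 activates and that phosphorylates Smad2 and Smad3, moved the other way. Its level was 198, 74.4 and 167 CPM in siIrf1 TGFbeta libraries, against 38.8, 31.9 and 51.4 CPM in siIrf1 0 d libraries. The siCtr libraries had 101 and 54.2 CPM with TGFbeta, against 4.87 and 16.3 CPM at 0 d. All TGFbeta libraries lay above all 0 d libraries of either siRNA, and both siCtr 0 d libraries lay below the 3 siIrf1 0 d libraries. TGFbeta raised Tgfbr1 3.59-fold in siIrf1 cells (log2 change 1.85 ± 0.48, adjusted p = 0.0201) and 7.29-fold in siCtr cells (2.87 ± 0.61, adjusted p = 0.00577). The interaction was -1.02 ± 0.74 (95% interval -2.68 to 0.64, adjusted p = 0.498). The call in siIrf1 cells was lost without siIrf1 0 d replicate 1 (1.81, adjusted p = 0.0763) or 2 (1.70, 0.076), or siIrf1 TGFbeta replicate 1 (1.56, 0.074) or 3 (1.74, 0.0556). It held with the trend removed (1.63 ± 0.22, adjusted p = 0.000324). Without TGFbeta, siIrf1 raised Tgfbr1 3.82-fold (1.93 ± 0.56, adjusted p = 0.0276), and with TGFbeta the libraries of both siRNAs overlapped (0.91 ± 0.53, adjusted p = 0.285). The rise without TGFbeta was called under part of the alternatives. With the trend removed it was 0.61 ± 0.26 (adjusted p = 0.0906), and without siCtr 0 d replicate 1 it was 1.31 (adjusted p = 0.136). Without siIrf1 0 d replicate 1 it was 1.97 (0.0584) and without siIrf1 0 d replicate 3 it was 1.73 (0.0805). Without siCtr 0 d replicate 3, which leaves the library that stood apart as the only control, it was 3.13. The GC content of the longest Tgfbr1 transcript is 41%, against 49.6% for Tgfbr2.

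Regions around the starts of Tgfbr1 and Tgfbr2 are shown because these are the receptor genes whose levels went in opposite directions. They run from 250 bases before to 50 bases after the gene start, 5′ to 3′ on the gene's strand, from RefSeq on GRCm38.p6, at chr4:47352972-47353271 (plus strand) and chr9:116175314-116175613 (minus strand). Capitals mark the Smad-binding element CAGAC, searched on both strands.
Tgfbr1: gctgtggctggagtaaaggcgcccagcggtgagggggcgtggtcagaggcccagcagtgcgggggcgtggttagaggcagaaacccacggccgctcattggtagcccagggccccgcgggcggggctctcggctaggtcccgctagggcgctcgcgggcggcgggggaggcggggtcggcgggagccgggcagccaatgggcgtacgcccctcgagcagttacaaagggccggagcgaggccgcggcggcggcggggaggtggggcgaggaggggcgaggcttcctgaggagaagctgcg
Tgfbr2: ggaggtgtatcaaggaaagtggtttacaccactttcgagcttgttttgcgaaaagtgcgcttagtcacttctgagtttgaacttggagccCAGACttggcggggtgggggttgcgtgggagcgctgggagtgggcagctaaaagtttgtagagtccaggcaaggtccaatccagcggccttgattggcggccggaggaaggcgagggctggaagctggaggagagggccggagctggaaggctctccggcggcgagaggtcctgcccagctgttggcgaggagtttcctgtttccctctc
The Tgfbr2 window held CAGAC once, with its first base 160 bases before the start (position -160), and the Tgfbr1 window held none. CAGAC was present in 49.6% of 32851 windows of this length. The core that interferon regulatory factors bind, GAAA-NN-GAAA (searched on both strands, without the hyphens), was in neither window and was present in 3.44% of the 32851. Windows were read for 5 of the 10 genes (Tgfbr1, which has a second window with CAGAC at position -203, and Tgfbr2, Smad3, Smad6 and Ski), and those of Smad3, Smad6 and Ski held neither motif. A match, or none, describes these letters and says nothing of binding.

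Tgfbr3 (Entrez gene 21814, chromosome 5, 107106567 to 107289629 in GRCm38.p6), the co-receptor, was scarce. Its level was 2.83, 2.02 and 2.98 CPM in siIrf1 TGFbeta libraries, against 9.67, 12.2 and 11.3 CPM in siIrf1 0 d libraries. In siCtr cells it was 2.46 and 2.53 CPM with TGFbeta, against 9.15 and 13.9 CPM at 0 d. Every TGFbeta library lay below every 0 d library, and the siRNA groups overlapped in both conditions. TGFbeta lowered Tgfbr3 to 0.235 of the 0 d level in siIrf1 cells (-2.09 ± 0.24, adjusted p = 0.000137) and to 0.216 in siCtr cells (-2.21 ± 0.29, adjusted p = 0.00029). The siRNA difference was 0.06 ± 0.26 with TGFbeta (95% interval -0.53 to 0.65) and -0.06 ± 0.25 without (-0.62 to 0.49).

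**Figure D2:**
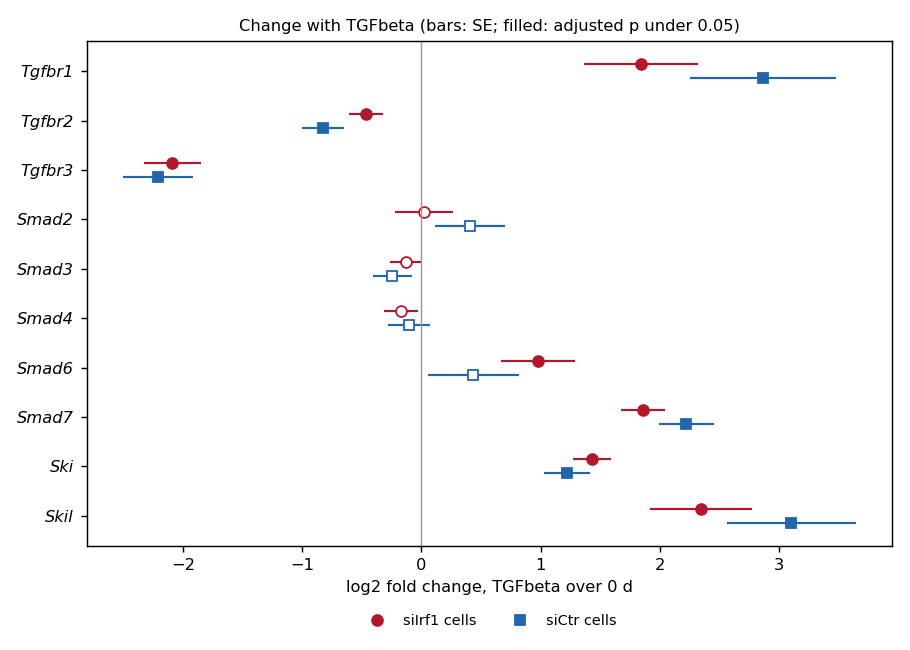
Log2 fold change (x axis) of each gene with TGFbeta over 0 d in siIrf1 cells (red circles, upper) and siCtr cells (blue squares, lower), with SE bars; filled symbols have an adjusted p under 0.05. The largest rises are those of Skil (2.35 in siIrf1 and 3.11 in siCtr cells) and the largest falls those of Tgfbr3 (-2.09 and -2.21).

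Smad2 (Entrez gene 17126, chromosome 18, 76241090 to 76311748 in GRCm38.p6) and Smad3 (Entrez gene 17127, chromosome 9, 63646766 to 63757994) carry the signal from the receptors. Smad2 stood at 94.0, 58.4 and 104 CPM in siIrf1 TGFbeta libraries and at 87.2, 75.7 and 89.6 CPM in siIrf1 0 d libraries. The siCtr libraries had 79.5 and 78.0 CPM with TGFbeta and 44.4 and 74.2 CPM at 0 d. The lowest values were those of siCtr 0 d replicate 1 and siIrf1 TGFbeta replicate 2, the libraries that stood apart, and no comparison of Smad2 passed the test on the deposited counts. Its siRNA difference without TGFbeta was 0.50 ± 0.27 (adjusted p = 0.179) on the deposited counts and -0.31 ± 0.11 (adjusted p = 0.0517) with the trend removed, so that its sign depended on that step. Without siCtr 0 d replicate 3, a rise of Smad2 passed the test for siIrf1 without TGFbeta (0.99, adjusted p = 0.0284) and for TGFbeta in siCtr cells (0.95, adjusted p = 0.0371). Smad3 stood at 144, 169 and 167 CPM in siIrf1 TGFbeta libraries and at 173, 183 and 169 CPM in siIrf1 0 d libraries. In siCtr cells it stood at 194 and 198 CPM with TGFbeta and at 258 and 205 CPM at 0 d. All 6 siIrf1 libraries lay below all 4 siCtr libraries. Averaged over both conditions, Smad3 fell with siIrf1 (-0.35 ± 0.10, 0.786 of the siCtr level, adjusted p = 0.0247), which with the trend removed was -0.20 ± 0.09 (adjusted p = 0.0769). The call was lost, at an adjusted p of 0.0603 to 0.105, without any 1 of siCtr 0 d replicate 1, either siCtr TGFbeta library, siIrf1 0 d replicate 1 or 3 and siIrf1 TGFbeta replicate 1. Within a condition it was -0.29 ± 0.15 with TGFbeta (adjusted p = 0.212) and -0.40 ± 0.15 without (adjusted p = 0.0594). TGFbeta moved Smad3 by -0.13 ± 0.13 in siIrf1 cells (adjusted p = 0.564) and by -0.24 ± 0.16 in siCtr cells (adjusted p = 0.273), and with the trend removed it fell in both (-0.39 ± 0.11, adjusted p = 0.0185, and -0.42 ± 0.13, adjusted p = 0.0252).

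Smad4 (Entrez gene 17128, chromosome 18, 73634790 to 73703791 in GRCm38.p6), the partner that Smad2 and Smad3 share, was the most even of the 10 genes. Its level was 113, 101 and 128 CPM in siIrf1 TGFbeta libraries and 140.2, 115 and 131 CPM in siIrf1 0 d libraries. The siCtr libraries had 96.9 and 111 CPM with TGFbeta and 118 and 105 CPM at 0 d. The groups overlapped in all 4 comparisons of 2 groups, and none was called. The siRNA difference was 0.13 ± 0.16 with TGFbeta (95% interval -0.22 to 0.49) and 0.21 ± 0.16 without (-0.15 to 0.56), and with the trend removed the difference without TGFbeta was 0.36 ± 0.12 (adjusted p = 0.0362).

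Smad7 (Entrez gene 17131, chromosome 18, 75367365 to 75395935 in GRCm38.p6) binds activated Tgfbr1 and brings ubiquitin ligases to it. Its level was 65.8, 76.5 and 59.9 CPM in siIrf1 TGFbeta libraries, against 15.9, 22.3 and 17.4 CPM in siIrf1 0 d libraries. In siCtr cells it was 60.8 and 53.4 CPM with TGFbeta, against 13.6 and 10.9 CPM at 0 d. The TGFbeta libraries lay far above the 0 d libraries in both backgrounds, and the 3 siIrf1 0 d libraries lay above both siCtr 0 d libraries. TGFbeta raised Smad7 3.63-fold in siIrf1 cells (1.86 ± 0.18, adjusted p = 5.86e-05) and 4.67-fold in siCtr cells (2.22 ± 0.23, adjusted p = 6.01e-05), both kept under every alternative tried. Without TGFbeta, siIrf1 raised Smad7 1.52-fold (0.60 ± 0.21, adjusted p = 0.0491), and with TGFbeta the difference was 0.24 ± 0.20 (adjusted p = 0.479) with overlapping libraries. The rise without TGFbeta was at the edge of the threshold on the deposited counts: its adjusted p was 0.0591 to 0.161 without any 1 library other than siIrf1 TGFbeta replicate 2 or 3. With the trend removed both differences were larger and passed, at 0.95 ± 0.13 without TGFbeta (adjusted p = 0.000806) and 0.49 ± 0.13 with TGFbeta (adjusted p = 0.016).

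Smad6 (Entrez gene 17130, chromosome 9, 63953076 to 64022085 in GRCm38.p6), best known as an inhibitor of the BMP branch, was among the scarcest members. It stood at 8.06, 12.03 and 6.02 CPM in siIrf1 TGFbeta libraries and at 3.36, 6.197 and 3.72 CPM in siIrf1 0 d libraries. The siCtr libraries had 6.81 and 6.26 CPM with TGFbeta and 4.16 and 5.49 CPM at 0 d. Replicate 2 was the highest library of both siIrf1 groups, and the siIrf1 TGFbeta and siIrf1 0 d libraries overlapped. TGFbeta raised Smad6 1.97-fold in siIrf1 cells (0.98 ± 0.31, adjusted p = 0.0491), while in siCtr cells the change was 0.44 ± 0.38 (adjusted p = 0.402). The interaction was 0.54 ± 0.49 (95% interval -0.55 to 1.63). The call in siIrf1 cells was lost without any 1 of the siIrf1 0 d replicates 1 (0.81, adjusted p = 0.18) and 3 (0.86, 0.174), the siIrf1 TGFbeta replicates 1 (1.03, 0.0898) and 2 (0.66, 0.124) and the siCtr TGFbeta replicates 2 (0.98, 0.0784) and 3 (0.98, 0.0785). It held with the trend removed (0.62 ± 0.16, adjusted p = 0.0125). With siIrf1 against siCtr, the differences were 0.42 ± 0.34 with TGFbeta and -0.12 ± 0.35 without, neither called; with the trend removed the one with TGFbeta was 0.67 ± 0.18 (adjusted p = 0.0185).

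Ski (Entrez gene 20481, chromosome 4, 155154075 to 155222535 in GRCm38.p6) encodes a repressor that binds Smad complexes at target genes. Its level was 219, 230.1 and 214 CPM in siIrf1 TGFbeta libraries, against 73.9, 101 and 70.8 CPM in siIrf1 0 d libraries. In siCtr cells it was 242 and 209 CPM with TGFbeta, against 100 and 93.4 CPM at 0 d. All TGFbeta libraries stood at 209 CPM or above and all 0 d libraries at 101 CPM or below, and the siRNA groups overlapped in both conditions. TGFbeta raised Ski 2.70-fold in siIrf1 cells (1.43 ± 0.16, adjusted p = 0.000118) and 2.33-fold in siCtr cells (1.22 ± 0.19, adjusted p = 0.000878), kept under every alternative tried. The siRNA difference was -0.03 ± 0.17 with TGFbeta (95% interval -0.41 to 0.36) and -0.24 ± 0.17 without (-0.62 to 0.15).

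Skil (Entrez gene 20482, chromosome 3, 31095058 to 31122923 in GRCm38.p6), the relative of Ski whose protein is degraded early in TGFbeta signalling and whose gene is then induced, was among the strongest responders to TGFbeta. Its level was 229, 87.7 and 191 CPM in siIrf1 TGFbeta libraries, against 31.2, 32.8 and 35.8 CPM in siIrf1 0 d libraries. The siCtr libraries had 123 and 79.4 CPM with TGFbeta, against 5.97 and 17.4 CPM at 0 d. As for Tgfbr1, siIrf1 TGFbeta replicate 2 was the lowest of its group and siCtr 0 d replicate 1 the lowest of all, and the longest Skil transcript has the same GC content, 41%. TGFbeta raised Skil 5.09-fold in siIrf1 cells (2.35 ± 0.43, adjusted p = 0.00298) and 8.61-fold in siCtr cells (3.11 ± 0.54, adjusted p = 0.0018), kept under every alternative tried. The interaction was -0.76 ± 0.65 (95% interval -2.20 to 0.69, adjusted p = 0.573). Without TGFbeta, siIrf1 raised Skil 2.83-fold (1.502 ± 0.48, adjusted p = 0.0403). This rise was 0.15 ± 0.18 (adjusted p = 0.553) with the trend removed and 0.92 (adjusted p = 0.204) without siCtr 0 d replicate 1. Without siIrf1 TGFbeta replicate 3, either siCtr TGFbeta library or any 1 siIrf1 0 d library its adjusted p was 0.0514 to 0.0965. Without siCtr 0 d replicate 3 the rise was 2.54. With TGFbeta the difference was 0.74 ± 0.46 (adjusted p = 0.318) and, with the trend removed, -0.03 ± 0.18 (adjusted p = 0.918).

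Over the 10 genes, siIrf1 against siCtr without TGFbeta gave 4 calls (Tgfbr1, Smad7 and Skil up, Tgfbr2 down), where 31.8% of all genes tested were called (16.3% up and 15.5% down) and 62.3% had no overlap between the groups. With TGFbeta present edgeR gave 0 calls, with 1 gene (Tgfbr2) at an unadjusted p under 0.05, and DESeq2 called 1 (Tgfbr2). Of all genes, 18% were called by edgeR (9.72% up and 8.28% down) and 22.5% by DESeq2. Averaged over both conditions 5 of 10 were called (Tgfbr1, Smad7 and Skil up, Tgfbr2 and Smad3 down), where 37.5% of all genes were (20.1% up and 17.4% down). After removal of the length and GC trend, the calls were Tgfbr2 down with Smad4 and Smad7 up without TGFbeta, where 36% of all genes were called, and Tgfbr2 down with Smad6 and Smad7 up with TGFbeta, where 27.4% were. Averaged over both conditions, this removal ended the calls of Tgfbr1 (0.39, adjusted p = 0.103), Skil (0.06, adjusted p = 0.729) and Smad3. The averaged calls were then Tgfbr2 (-0.63) and Smad2 (-0.28, adjusted p = 0.0161) down and Smad4 (0.28, adjusted p = 0.0204), Smad6 (0.52, adjusted p = 0.00836) and Smad7 (0.72) up, where 44% of all genes were called. Tgfbr2 was the gene called down, and Smad7 the gene called up, under both treatments of the counts without TGFbeta. The trend moved the balance of calls over all genes for TGFbeta in siIrf1 cells, with 1523 genes up and 1276 down on the deposited counts, and 1912 up and 2463 down with the trend removed. Leaving out both libraries that stood apart, 4 of the 10 genes were called with TGFbeta present (Tgfbr1 1.16 and Skil 0.99 up, Tgfbr2 -0.48 and Smad3 -0.40 down), where 36.5% of all genes were called, and 4 without TGFbeta, where 25.8% were.

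**Figure D3:**
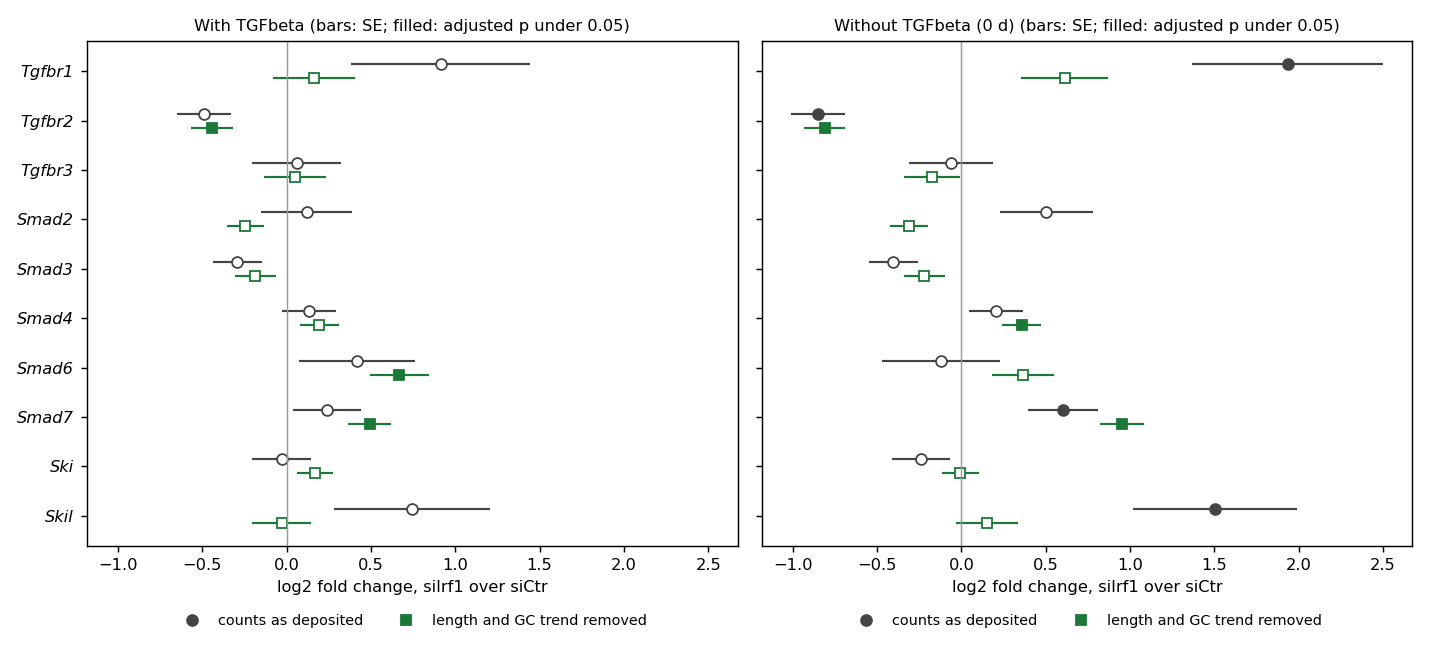
Log2 fold change (x axis) of each gene in siIrf1 over siCtr cells with TGFbeta (left) and without (right), on the deposited counts (grey circles, upper) and with the length and GC trend removed (green squares, lower), with SE bars; filled symbols have an adjusted p under 0.05. Tgfbr2 lies at -0.49 and -0.44 with TGFbeta and at -0.85 and -0.81 without, whereas Tgfbr1 and Skil without TGFbeta lie at 1.93 and 1.502 on the deposited counts and at 0.61 and 0.15 with the trend removed.

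Levels were compared between genes per kilobase of the deposited gene length (RPKM). Tgfbr2 had the highest RPKM of the 10 genes in each of the 4 groups, at 45.4 ± 7.2 in siIrf1 TGFbeta, 62.8 ± 5.2 in siIrf1 0 d, 63.8 ± 1.5 in siCtr TGFbeta and 113 ± 11 in siCtr 0 d libraries (SD, n = 3, 3, 2 and 2). In siIrf1 TGFbeta libraries it was followed by Ski (40.4 ± 1.5), whose range it overlapped, by Smad4 (34.2 ± 4.0) and Smad3 (31.4 ± 2.8), whose ranges overlapped each other and lay below that of Ski, and then by Tgfbr1 (24.3 ± 11), Skil (24.0 ± 10), Smad7 (15.2 ± 1.9), Smad2 (9.35 ± 2.6), Smad6 (2.93 ± 1.0) and Tgfbr3 (0.432 ± 0.085). In siCtr 0 d libraries the order after Tgfbr2 was Smad3 (45.5 ± 7.4), Smad4 (33.5 ± 2.7), Ski (17.7 ± 0.86), Smad2 (6.49 ± 2.3) and Smad7 (2.75 ± 0.42), with Tgfbr3, Tgfbr1, Skil and Smad6 between 1.91 and 1.62 and overlapping. Tgfbr1 thus ranked 5th with siIrf1 and TGFbeta and 8th in siCtr 0 d libraries. Smad3 was above Smad2 in every library, by a ratio of RPKM of 2.74 to 10.5.

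**Figure D4:**
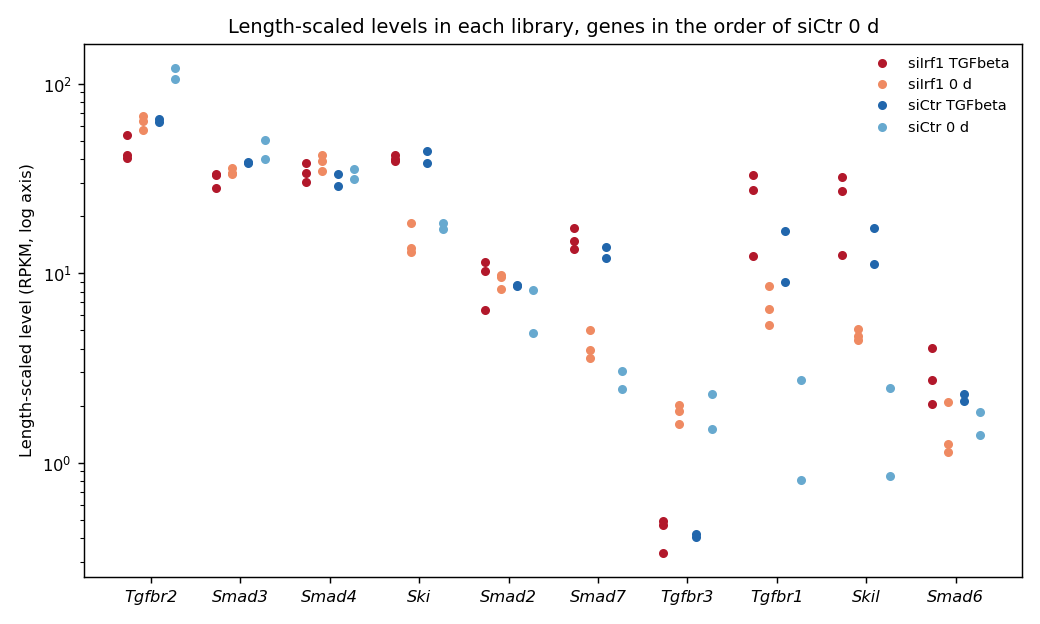
Level per gene length (RPKM, log axis) of the 10 genes in each library, coloured by group and ordered from left to right by the siCtr 0 d mean. Tgfbr2 has the highest mean in every group, though Ski lies above it in siIrf1 TGFbeta replicate 2 (42.1 against 40.6 RPKM), and Tgfbr1 and Skil span the widest range, from under 1 RPKM in siCtr 0 d replicate 1 to 32.9 and 32.4 RPKM in siIrf1 TGFbeta libraries.

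Ratios between members describe the balance of activating and restraining transcripts. The Tgfbr2 to Tgfbr1 ratio of RPKM was 1.27, 3.29 and 1.94 in siIrf1 TGFbeta libraries and 9.89, 12.7 and 6.69 in siIrf1 0 d libraries. The siCtr values were 3.74 and 7.2 with TGFbeta and 149 and 38.9 at 0 d. All siIrf1 libraries had a lower ratio than both siCtr libraries of the same condition. The sum of Smad2 and Smad3 was 38.5, 39.6 and 44.2 RPKM in siIrf1 TGFbeta libraries and 46.8 and 47.3 RPKM in siCtr TGFbeta libraries. It was 43.5, 44.3 and 43.1 RPKM in siIrf1 0 d libraries and 55.6 and 48.4 RPKM in siCtr 0 d libraries. Per receptor Smad, Smad7 stood at 0.385, 0.435 and 0.305 in siIrf1 TGFbeta libraries and at 0.293 and 0.254 in siCtr TGFbeta libraries. It stood at 0.0824, 0.113 and 0.0907 in siIrf1 0 d libraries and 0.0549 and 0.0508 in siCtr 0 d libraries. Ski and Skil together stood at 1.88, 1.38 and 1.5 per receptor Smad in siIrf1 TGFbeta libraries and at 1.32 and 1.04 in siCtr TGFbeta libraries. They stood at 0.412, 0.522 and 0.418 in siIrf1 0 d libraries and 0.344 and 0.404 in siCtr 0 d libraries. In both of these ratios all siIrf1 libraries lay above the siCtr libraries of the same condition. All ratios were taken on the deposited counts and carry the GC difference between libraries given above. Without TGFbeta, removal of the trend moved the siRNA difference of Smad2 from 0.50 to -0.31 and that of Smad7 from 0.60 to 0.95. It moved that of Tgfbr1 from 1.93 to 0.61, of Skil from 1.502 to 0.15 and of Ski from -0.24 to -0.006. With TGFbeta, it moved Tgfbr1 from 0.91 to 0.16, Skil from 0.74 to -0.03 and Ski from -0.03 to 0.17. The ratios were not tested.

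**Figure D5:**
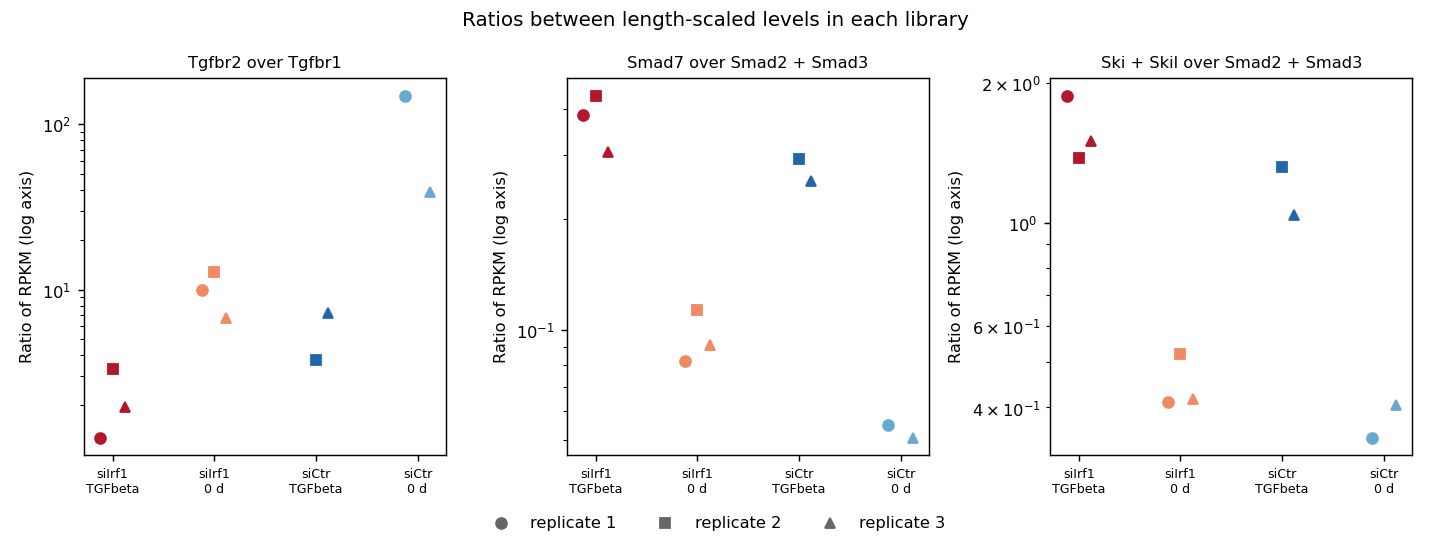
Ratios of RPKM (log axes) in each library, by group, with a marker shape per replicate number: Tgfbr2 over Tgfbr1, Smad7 over the sum of Smad2 and Smad3, and the sum of Ski and Skil over the sum of Smad2 and Smad3. On the deposited counts, in siIrf1 libraries the first ratio is lower, and the others are higher, than in siCtr libraries of the same condition.

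Other receptors of the superfamily were described from a list of 13 genes, of which 9 were tested. In siIrf1 cells TGFbeta raised 4 and lowered 0 (median log2 change 0.61, against 0.02 over all genes tested), and in siCtr cells it raised 5 and lowered 0 (median 1.5, against 0.02). Over all genes tested, 21.3% were called in siIrf1 cells and 32.5% in siCtr cells. Acvr1, a type I receptor for activins and BMPs, averaged 130.3 CPM in siIrf1 TGFbeta and 44.1 CPM in siIrf1 0 d libraries, and 221 CPM in siCtr TGFbeta and 78.0 CPM in siCtr 0 d libraries. It fell with siIrf1 in both conditions (-0.76 ± 0.18 with TGFbeta, adjusted p = 0.0148, and -0.82 ± 0.18 without, adjusted p = 0.00785), and with the trend removed as well (-0.73, adjusted p = 0.00281, and -0.74, adjusted p = 0.00269). Acvrl1, a type I receptor best known in endothelium, averaged 0.167 CPM in siIrf1 TGFbeta against 1.16 CPM in siCtr TGFbeta libraries (-2.72 ± 0.40, adjusted p = 0.00171). The endothelial marker Cdh5 averaged 1.64 CPM in siIrf1 TGFbeta against 5.42 CPM in siCtr TGFbeta libraries, and its part in the Acvrl1 result was not tested. Bmpr2, a BMP type II receptor, rose with siIrf1 (1.11 ± 0.33 with TGFbeta, adjusted p = 0.0434, and 2.31 ± 0.35 without, adjusted p = 0.00188), but with the trend removed its difference was 0.31 ± 0.15 with TGFbeta (adjusted p = 0.164) and 0.83 ± 0.16 without (adjusted p = 0.00417). Bmpr1a rose with siIrf1 without TGFbeta (1.76 ± 0.48, adjusted p = 0.0216; 0.50 and adjusted p = 0.0614 with the trend removed). Of the Smads of the BMP branch, Smad1 rose with TGFbeta in siIrf1 (0.52 ± 0.14, adjusted p = 0.0268) and siCtr cells (1.18 ± 0.18, adjusted p = 0.000659), and with the trend removed its interaction was called (-0.86, adjusted p = 0.018). Smad5 was not called in any comparison on the deposited counts, but with the trend removed it was lower in siIrf1 cells both with TGFbeta (-0.99, adjusted p = 0.000795) and without (-0.99, adjusted p = 0.000952), and Smad9 was too low to be tested.

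Genes that set the turnover of receptors and Smads were described from a list of 11. Of these ubiquitin ligases and deubiquitinases, 3 were higher and 1 lower in siIrf1 than in siCtr cells with TGFbeta (median 0.33, against 0.05 over all genes, of which 18% were called), and 4 higher and 1 lower without (0.28, against -0.03 over all genes, of which 31.8% were called). Smurf1, a ligase that targets receptors and Smads, averaged 148 CPM in siIrf1 TGFbeta against 250.8 CPM in siCtr TGFbeta libraries (-0.76 ± 0.15, adjusted p = 0.00775). Usp9x and Usp15, deubiquitinases that act on Smad4 and on receptor complexes, rose with siIrf1 in both conditions. Their log2 changes were 1.69 ± 0.42 and 1.35 ± 0.36 with TGFbeta and 3.01 ± 0.45 and 2.38 ± 0.39 without. These rises were smaller with the trend removed (0.78 and 0.73 with TGFbeta, 1.44 and 1.14 without), though still called. Wwp1, another ligase, rose without TGFbeta (2.05 ± 0.37, adjusted p = 0.00376; 0.44 and adjusted p = 0.0348 with the trend removed), and Trim33, which acts on Smad4, rose with TGFbeta in siCtr cells (1.52 ± 0.49, adjusted p = 0.0393). Nedd4l, a ligase for activated Smad2 and Smad3, was lowered by TGFbeta, by -1.40 ± 0.12 in siIrf1 cells (adjusted p = 3.22e-05) and by -2.25 ± 0.16 in siCtr cells (adjusted p = 5.96e-06). Its interaction was called (0.85 ± 0.20, adjusted p = 0.0409), but not with the trend removed (1.35 ± 0.38, adjusted p = 0.0538).

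Of 10 adaptors and modifiers, 0 were higher and 2 lower in siIrf1 than in siCtr cells with TGFbeta (median -0.11), and 3 higher and 2 lower without (median 0.12), where 18% and 31.8% of all genes were called. With the trend removed, 2 were higher and 4 lower with TGFbeta, and 2 higher and 2 lower without. There 27.4% and 36% of all genes were called. Fkbp1a, which binds inactive Tgfbr1, averaged 449 CPM in siIrf1 TGFbeta against 770 CPM in siCtr TGFbeta libraries (-0.78 ± 0.19, adjusted p = 0.0198), and 405 CPM in siIrf1 0 d against 717 CPM in siCtr 0 d libraries (-0.83 ± 0.19, adjusted p = 0.0109; -0.41 and adjusted p = 0.141 with the trend removed). Ppp1r15a, a phosphatase subunit that Smad7 recruits to Tgfbr1, was lower with TGFbeta (-0.79 ± 0.22, adjusted p = 0.0302). Pmepa1, a feedback inhibitor and target gene, was lower without TGFbeta (-1.06 ± 0.22, adjusted p = 0.00708), and the endosomal adaptor Appl1 was higher (2.82 ± 0.51, adjusted p = 0.00379; 1.47 and adjusted p = 0.00187 with the trend removed). TGFbeta raised Pmepa1 (2.55 ± 0.26), Appl1 (1.82 ± 0.52; 0.98 with the trend removed) and the adaptor Dab2, which averaged 0.307 CPM in siCtr TGFbeta and 0.0348 CPM in siCtr 0 d libraries, in siCtr cells. Of 11 nuclear Smad partners tested from a list of 14, 0 were higher and 3 lower in siIrf1 cells with TGFbeta (median -0.43, against 0.05 over all genes). These were the transcription factors Runx1 (39.9 against 81.7 CPM, -1.03 ± 0.25, adjusted p = 0.0168) and Runx2 (26.6 against 56.9 CPM, -1.10 ± 0.31, adjusted p = 0.0335) and the corepressor Tgif1 (209 against 326 CPM, -0.65 ± 0.15, adjusted p = 0.0128), in siIrf1 TGFbeta against siCtr TGFbeta libraries. All 3 stayed called with the trend removed. In that fit 0 partners were higher and 4 lower with TGFbeta, and 1 higher and 5 lower without, where 27.4% and 36% of all genes were called. Without TGFbeta, Runx1 (-0.79 ± 0.25) and Runx2 (-1.12 ± 0.31) were lower and Zeb2, a Smad-binding repressor, higher (2.07 ± 0.61, adjusted p = 0.0277; 0.67 and adjusted p = 0.188 with the trend removed).

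The output of the pathway was read from 13 known TGFbeta target genes, a list chosen with results of these data known. TGFbeta raised 11 and lowered 2 in siIrf1 cells (median log2 change 2.17) and raised 11 and lowered 1 in siCtr cells (median 2.56). Over all genes tested, 21.3% were called in siIrf1 cells and 32.5% in siCtr cells. With TGFbeta present, 1 was higher and 6 were lower in siIrf1 than in siCtr cells (median -0.51, against 0.05 over all genes, of which 18% were called). Tnc (tenascin C) averaged 195 ± 50 CPM in siIrf1 TGFbeta against 1656 ± 54 CPM in siCtr TGFbeta libraries (-3.09 ± 0.23, adjusted p = 4.85e-05). In the same groups the integrin gene Itga5 averaged 43.3 ± 3.6 against 260.3 ± 14 CPM (-2.59 ± 0.17, adjusted p = 2.86e-05) and the collagen gene Col7a1 42.6 ± 10 against 196 ± 48 CPM (-2.20 ± 0.26, adjusted p = 0.000595). Col7a1 rose with TGFbeta by 4.83 ± 0.28 in siIrf1 cells and by 5.99 ± 0.36 in siCtr cells. Cdkn1a, a cell cycle inhibitor, was the gene higher with siIrf1 (1.11 ± 0.18 with TGFbeta, adjusted p = 0.00247, and 1.19 ± 0.18 without, adjusted p = 0.00149). Unlike most of the list, its mean was lower with TGFbeta than at 0 d in both backgrounds. It averaged 337.6 CPM in siIrf1 TGFbeta and 500.5 CPM in siIrf1 0 d libraries. In siCtr cells it averaged 156.5 CPM with TGFbeta and 220 CPM at 0 d. The TGFbeta effect itself was smaller in siIrf1 cells for Tnc and Itga5, whose interactions were called (-2.59 ± 0.32 and -2.07 ± 0.25). Interactions of 4.12% of all genes were called in that fit. With the trend removed 6 of the 13 had a called interaction, all negative, where 9.53% of all genes were called. The 6 were Tnc, Itga5, Fn1 (-2.54), Snai1 (-2.22), Col7a1 (-1.14) and Ccn2 (-0.92). Of them, Fn1, Snai1 and Ccn2 are named after their values were seen. For Smad7 and Skil, which are both members and known targets, the interactions on the deposited counts were -0.36 ± 0.29 (adjusted p = 0.537) and -0.76 ± 0.65 (adjusted p = 0.573). With the trend removed they were -0.46 ± 0.18 (adjusted p = 0.143) and -0.18 ± 0.255 (adjusted p = 0.71). Among the 10 core genes, Tgfbr2 and Smad3 were those for which all siIrf1 TGFbeta libraries lay apart from both siCtr TGFbeta libraries, at 0.712 and 0.817 of the siCtr level, and neither difference passed the edgeR test on the deposited counts. That of Tgfbr2 passed under 8 of 19 alternatives, among them DESeq2, the stricter filter (-0.55, adjusted p = 0.0429) and removal of the trend. Under the other 11 it was not called. In this comparison 46.3% of all genes tested had no overlap. Their part in the lower target levels was not tested, and protein levels were not measured.

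Profiles over the 10 libraries were matched for each member among the 9069 genes averaging 10 CPM or more, by the root mean square difference of z-scored log2 CPM, for which 0 is an identical profile. The nearest genes were Dnajc3 for Tgfbr1 (0.138), Ggcx for Tgfbr2 (0.155), Car12 for Tgfbr3 (0.163), Ate1 for Smad2 (0.122), Elovl1 for Smad3 (0.208), Vdac3 for Smad4 (0.307), Pxn for Smad6 (0.312), Fzd1 for Smad7 (0.128), Lfng for Ski (0.134) and Nrip1 for Skil (0.152). Smad4 and Smad6 had the least close matches. All profiles share the depth and GC differences between libraries.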

How the data were processed

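RNA was sequenced from 10 libraries made with a stranded kit, per the labels' protocols. The authors' table gives, for each gene, unnormalized read counts (whole numbers) and a length, per the file headers and the values; reads were aligned with STAR to mm10 (GRCm38), per the submitters' processing notes. How reads were counted, and whether by strand, is not given in the sources used here, so genes with an overlapping antisense partner are uncertain. Of 24454 Entrez identifiers, 24374 were named from RefSeq (GRCm38.p6) and 7 from GENCODE M21; 73 had no match and held 0.211 to 1.50% of a library's counts. All 10 columns were used. No pair of replicates was as alike as counting noise allows (chi-square over its degrees of freedom, 24.3 to 305). Nothing in the labels says that each library was a culture of its own, so p-values reflect only the spread among these libraries, which may be technical.

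Counts were tested in R 4.3.3 with edgeR 4.0.16 (TMM scaling, genes kept by filterByExpr, quasi-likelihood F test with robust priors), fitting all libraries at once with a term per group, which left 6 residual degrees of freedom. The Benjamini-Hochberg adjustment ran over all 13135 genes, and 0.05 was the threshold. The ± after a log2 change is the SE (the log2 change over the square root of F). Means carry the SD. Interval bounds are 95%. The test was checked on simulated counts drawn without a length or GC trend, so the check does not cover that trend or libraries that stand apart. The length and GC trend was fitted per library with splines (5 degrees of freedom) on gene length and on the GC content of each gene's longest transcript in GENCODE M21 (available for 95% of genes tested), and entered as offsets. Alternatives were RLE size factors, no filter, a stricter filter (2 CPM in 3 libraries), DESeq2 1.42.0, a fit of only the groups compared, a block by replicate number, each library left out, and both libraries that stood apart left out. Same-numbered libraries deviated together between siIrf1 TGFbeta and siIrf1 0 d (correlations 0.131, 0.513 and 0.377). There the numbers may pair libraries, which the labels do not state. The fit with the block is printed where it changes a call in that comparison. Over all groups 8 of 12 correlations were over 0.1, with a range of -0.507 to 0.513. Deviations were taken from means of groups of 2 or 3 libraries, so these correlations do not by themselves show pairing. Sample titles also carry a code that runs with the replicate number, and its meaning is not given.

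The members and lists were chosen with earlier results of these data known. Genes named are all members, Irf1, from each pathway list up to 3 called genes with the smallest adjusted p in the interaction, each siRNA comparison and TGFbeta in siCtr cells, all genes of a list of 3 or fewer, and the gene nearest in profile to each member. A target gene is not reported here and was left out of the target list.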

Additional observations from a re-analysis of the deposited data

Results flagged for a closer look

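In 3 genes around the core pathway the TGFbeta effect differed between siIrf1 and siCtr cells by the test of the interaction (edgeR, adjusted over all genes tested). These were 1 of 11 ubiquitin ligases and deubiquitinases and 2 of 13 target genes. None was called among the 9 other receptors, 2 BMP-branch Smads, 10 adaptors and modifiers and 11 nuclear partners tested. Over all genes tested, 4.12% were called. Among the 10 core genes no interaction was called. Nedd4l, the ligase for activated Smad2 and Smad3, fell less in siIrf1 cells (interaction 0.85, adjusted p = 0.0409): it averaged 66.1 ± 5.7 CPM in siIrf1 TGFbeta and 174 ± 10 CPM in siIrf1 0 d libraries, and 47.8 ± 1.3 CPM in siCtr TGFbeta and 227 ± 16 CPM in siCtr 0 d libraries. With the length and GC trend removed this interaction was 1.35 (adjusted p = 0.0538). Itga5 rose less in siIrf1 cells (-2.07, adjusted p = 0.00187; -2.16 with the trend removed), and so did Tnc (-2.59, adjusted p = 0.00242; -2.60 with the trend removed).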

How the results depend on the processing

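Over 60 results of a gene in a comparison, each under 19 alternatives (18 for the interaction and the averaged effect, for which a fit of the compared groups alone was not run), none of the 22 called results changed direction, 11 stayed called throughout, and 23 results were not called under any setting. No interaction of the 10 genes was called under any of them. For siIrf1 against siCtr with TGFbeta, where no gene was called, the stricter filter gave 1 call, DESeq2 1, removal of the length and GC trend 3 with or without the replicate block, and leaving out both libraries that stood apart 4. Over all genes tested, the share called with TGFbeta was 18% in the main fit, 16.7% with the stricter filter and 22.5% by DESeq2. It was 27.4% with the trend removed and 25.3% with the block as well. Without TGFbeta no filter gave 1 call in place of 4, where 20.1% of all genes were called in place of 31.8%. Averaged over conditions it gave 3 in place of 5, where 25.1% were called in place of 37.5%. Leaving out 1 library gave 4 to 6 calls for TGFbeta in siIrf1 cells (4 without siIrf1 0 d replicate 1 or siIrf1 TGFbeta replicate 1), 0 to 1 for siIrf1 against siCtr with TGFbeta, 1 to 5 without TGFbeta (1 without siCtr 0 d replicate 1, siIrf1 0 d replicate 1 or siIrf1 0 d replicate 3; 2 without either siCtr TGFbeta library or siIrf1 0 d replicate 2) and 1 to 5 averaged (1 without siCtr TGFbeta replicate 3; 2 without siCtr 0 d replicate 1, siIrf1 0 d replicate 3 or siIrf1 TGFbeta replicate 1). The share of all genes called moved with these libraries as well. For TGFbeta in siIrf1 cells it was 15% without siIrf1 0 d replicate 1 and 15.6% without siIrf1 TGFbeta replicate 1, in place of 21.3%. For siIrf1 without TGFbeta it was 19.7%, 30.5% and 17.1% without siIrf1 0 d replicates 1, 2 and 3, in place of 31.8%. Averaged, it was 28.6% without siIrf1 0 d replicate 3 and 29.6% without siIrf1 TGFbeta replicate 1, in place of 37.5%. In both of these comparisons the share also fell without the siCtr libraries named above for them. With RLE size factors Smad2 and Smad3 stood at 79.98 and 198.8 CPM in siCtr TGFbeta libraries.

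The log2 changes below were not called on the deposited counts and changed sign; the cause was not tested. Of them, Smad2 averaged passed the test with the trend removed (adjusted p = 0.0161, and 0.0217 with the block). With the replicate block, Smad2 was -0.0039 for TGFbeta in siIrf1 cells, Smad4 0.022 for TGFbeta in siCtr cells, Ski 0.0060 for siIrf1 with TGFbeta and Tgfbr3 0.046 averaged. The block also ended the call of Skil without TGFbeta (1.63, adjusted p = 0.0559) and of Tgfbr2 for TGFbeta in siIrf1 cells, and no other call of the 10 genes in the 4 comparisons of 2 groups. With the trend removed, Smad2 was -0.22 and -0.29 for TGFbeta in siIrf1 and siCtr cells, -0.25, -0.31 and -0.28 for siIrf1 with TGFbeta, without and averaged, and 0.064 in the interaction; Ski was 0.17 with TGFbeta and 0.081 averaged, Skil -0.030 with TGFbeta and Smad6 0.36 without. With the trend removed and the replicate block, Smad2 was -0.22, -0.23, -0.28, -0.285, -0.28 and 0.0075 in the same order, Smad4 0.081 for TGFbeta in siCtr cells, Ski 0.16 and 0.070, Skil -0.0055 and Smad6 0.29. The stricter filter gave Tgfbr3 -0.0023 with TGFbeta. Without both libraries that stood apart, Smad4 was 0.024 for TGFbeta in siCtr cells, the interactions of Smad2, Smad3 and Skil were 0.096, -0.16 and 0.064, and Smad6 averaged -0.14.

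Without 1 library, Smad2 spanned -0.14 to 0.24 for TGFbeta in siIrf1 cells and Smad4 -0.13 to 0.085 in siCtr cells. For siIrf1 with TGFbeta, Tgfbr3 spanned -0.047 to 0.22, Smad2 -0.048 to 0.33, Smad4 -0.020 to 0.22 and Ski -0.18 to 0.026; without TGFbeta, Tgfbr3 spanned -0.34 to 0.34 and Smad6 -0.45 to 0.16. Interactions spanned -0.33 to 0.35 (Tgfbr3), -0.10 to 0.18 (Smad3) and -0.26 to 0.0098 (Smad4), and averaged effects -0.17 to 0.17 (Tgfbr3) and -0.016 to 0.27 (Smad6).

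Over all genes, 541 interactions were called, against 1166 by DESeq2 and 1252 with the trend removed and, without 1 library, 122 (siCtr TGFbeta replicate 2) to 1590 (siCtr 0 d replicate 3), with 182 to 279 without siCtr TGFbeta replicate 3, siCtr 0 d replicate 1 or siIrf1 0 d replicate 1 or 3. TGFbeta in siIrf1 cells gave 2799 calls, against 4375 with the trend removed, and siIrf1 with TGFbeta 2365, against 3597 and, without 1 library, 762 (siCtr TGFbeta replicate 2), 859 (siCtr TGFbeta replicate 3) and 1570 (siIrf1 TGFbeta replicate 1). TGFbeta in siCtr cells gave 4267, against 2297 and 2788 without siCtr TGFbeta replicate 2 and siCtr 0 d replicate 1, and siIrf1 without TGFbeta 4175, against 1700, 2583 and 2245 without siCtr 0 d replicate 1 and siIrf1 0 d replicates 1 and 3. With 2 libraries in each siCtr group, the 95% intervals of the Tgfbr1 and Skil interactions (-2.68 to 0.64 and -2.20 to 0.69) limit what could be seen.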
